A study of Mus musculus with 12 samples.

Results

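The 10 genes described here encode mitochondrial chaperones and proteases and were taken by gene name from the 38924 genes in each deposited table. The chaperones are Hspd1, Hspe1 and Hspa9. The proteases and their partners are Lonp1, Clpp, Clpx, Afg3l2, Spg7, Yme1l1 and Htra2. All 10 names were found once in the tables, and all 10 passed the filter on low counts.

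Most mitochondrial proteins are made in the cytosol and pulled into the organelle unfolded. Hspa9 (mortalin, the mitochondrial Hsp70) is the motor that draws them through the inner membrane, and Hspd1 (Hsp60) with its lid Hspe1 (Hsp10) forms the chamber in which many of them fold. Proteins that stay damaged are degraded by ATP-driven proteases of the matrix (Lonp1, and Clpp with its unfoldase Clpx) and of the inner membrane (Afg3l2, Spg7 and Yme1l1), while Htra2 is a serine protease of the intermembrane space. Cells with damaged mitochondrial proteins are known to raise several of these genes, a programme called the mitochondrial unfolded protein response. Inherited changes in Hspd1, Spg7 and Afg3l2 cause spastic paraplegia or ataxia, disorders of long axons and of the cerebellum.

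The tissue was the whole spinal cord of mice aged 8 weeks on the B6J.Cg strain background, and polyA RNA was sequenced in 12 libraries. The study compared mice carrying the C201R allele of Gars, the glycyl-tRNA synthetase gene, with wild-type (WT) mice. In the genotype tag, the 6 libraries titled C201R are C201R+/-, and the 6 titled WT carry the text C201R+/+. By title there were 3 libraries in each group of C201R females, C201R males, WT females and WT males. The library names in the labels give another genotype than the titles for 4 libraries: 4 and 9 are titled WT and named C201R, and 11 and 12 are titled C201R and named WT. Libraries 1, 2, 3, 4, 9 and 10 are thus named C201R, and libraries 5, 6, 7, 8, 11 and 12 are named WT. Each genotype difference is given below both ways and in the 8 libraries whose labels match. Whether every library is from its own animal is not stated in the labels, and the p-values below therefore reflect differences among these 12 libraries, which may be partly technical.

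Each library held between 27175421 and 38271405 expected counts. Levels of the X-linked transcript Xist went against some titles: it lay between 522 and 685 CPM (TMM-scaled counts, comparable between libraries) in 5 of 6 libraries titled C201R and 1 of 6 titled WT, and at or below 0.22 CPM in the rest. By library name, 3 of 6 libraries of each genotype had high Xist, and by titled sex 3 of 6 females and 3 of 6 males. In the 8 libraries whose labels match, Xist was high in libraries 1, 2 and 3 (C201R) and 8 (WT). It was low there in libraries 10 (C201R) and 5, 6 and 7 (WT), so this subset was not balanced for Xist. The 4 Y-linked transcripts measured summed to at most 0.125 CPM in the 6 libraries high in Xist (1, 2, 3, 8, 11 and 12) and to 126 to 164 CPM in the other 6. The titled sex, which is a term of the fits below, thus went against these transcripts in 6 of 12 libraries. Summed skeletal muscle markers ranged from 27.7 to 2750 CPM and were highest in libraries 1, 3, 6 and 8. Neuron markers (8 genes) summed to 4727 to 5505 CPM and oligodendrocyte markers (7 genes) to 25980 to 31234 CPM.

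The 3 chaperone genes stood well above the 7 proteases. On the deposited TPM scale, which is per length and so allows genes to be compared, Hspd1 had a median of 171.7 over the 12 libraries (150 to 179), Hspa9 155 (147 to 168) and Hspe1 146 (139 to 171). The ranges of these 3 overlapped one another, and every library had them above every protease. A second group lay near 50 TPM. It held Afg3l2 at a median of 52.2 (48.1 to 54.4), Lonp1 at 51.6 (45.6 to 56.1), Spg7 at 47.3 (41.3 to 51.5) and Clpp at 44.6 (40.6 to 48.0). These 4 also overlapped from each gene to the next. Yme1l1 followed alone at 35.7 (31.2 to 39.6), and Htra2 at 24.7 (23.0 to 26.8) overlapped Clpx at 23.2 (21.8 to 27.8). Over all libraries the coefficient of variation of a gene's TPM ran from 3.59% for Afg3l2 to 8.78% for Clpx.

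Partners within a complex differed in how close their levels were. The 2 parts of the folding chamber were close, with an Hspd1 to Hspe1 ratio of TPM between 1.00 and 1.23. The unfoldase Clpx stood at 0.478 to 0.667 of its peptidase Clpp. Afg3l2, which can form a protease ring alone or with Spg7, stood at 1.02 to 1.26 of Spg7. RNA levels do not give the stoichiometry of the proteins.

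**Figure D1:**
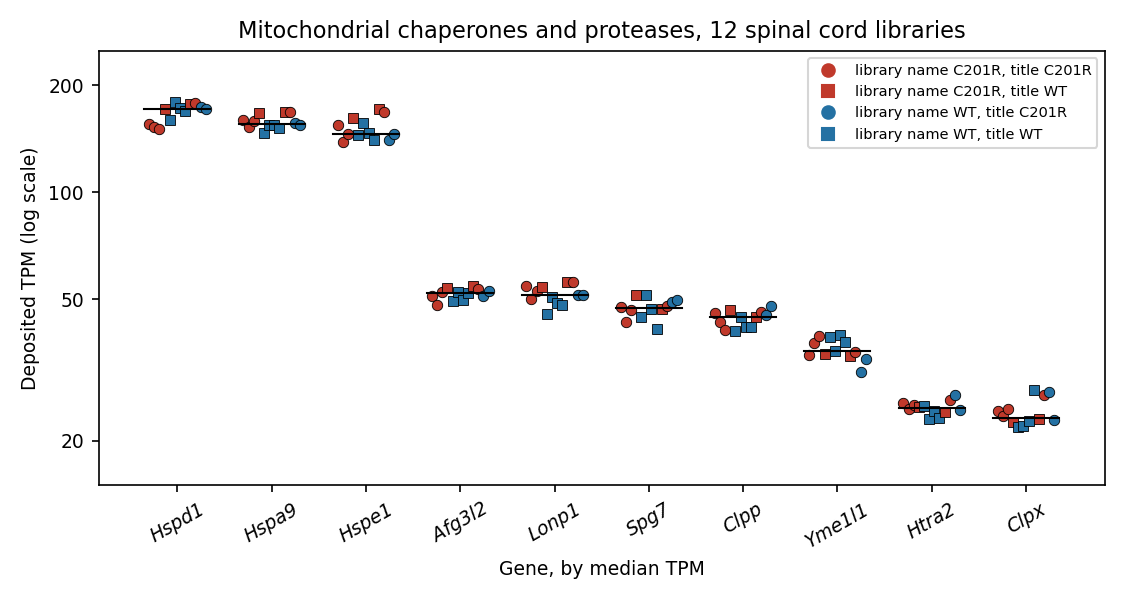
Deposited TPM (log scale) of the 10 genes in each of the 12 libraries, ordered by median TPM (black line); within a gene, libraries run from 1 to 12 from left to right. Colour gives the genotype in the library name and shape the genotype in the title. Hspd1, Hspa9 and Hspe1 lie between 139 and 179 TPM, above all libraries of the 7 proteases.

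By library name, none of the 10 genes passed edgeR's quasi-likelihood test at an adjusted p of 0.05, where 0.715% of the 17765 genes tested did. The genes with an unadjusted p under 0.05 were Lonp1 and Hspa9, higher in libraries named C201R, and Hspd1, lower, which is 3 of 10 against 12.8% of the genes tested (5.98% higher and 6.81% lower). By DESeq2, 1 of the 10 passed, Lonp1, where 318 of the 17765 genes tested did. The differences split evenly, with 5 higher and 5 lower (50.9% of all genes were higher), and their median was 0.01 on the log2 scale against 0.002 over all genes. The 95% intervals of the 10 differences lay between a fall of 11.7% and a rise of 13.4%. In bulk tissue, fewer cells of a type and less RNA per cell cannot be told apart.

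By title, again none of the 10 passed, where edgeR called 0.00% of genes and DESeq2 18 genes. Without adjustment, 6.77% of genes had p under 0.05. Among the 10, only Hspd1 had an unadjusted p under 0.05 by title. In the 8 libraries with matching labels none of the 10 passed, where 0.158% of 18384 genes did, and Lonp1 and Hspd1 had an unadjusted p under 0.05, against 12.7% of the genes tested. By titled sex none passed, where edgeR called 0.00% of genes, and 0 of the 10 against 5.52% of the genes tested had an unadjusted p under 0.05. DESeq2 called 9 genes by titled sex, none of them among the 10. Of the 5 sex-linked transcripts, 0 passed edgeR's test by titled sex, so that comparison cannot show a difference between the sexes. These comparisons share libraries and are not independent of each other.

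**Figure D2:**
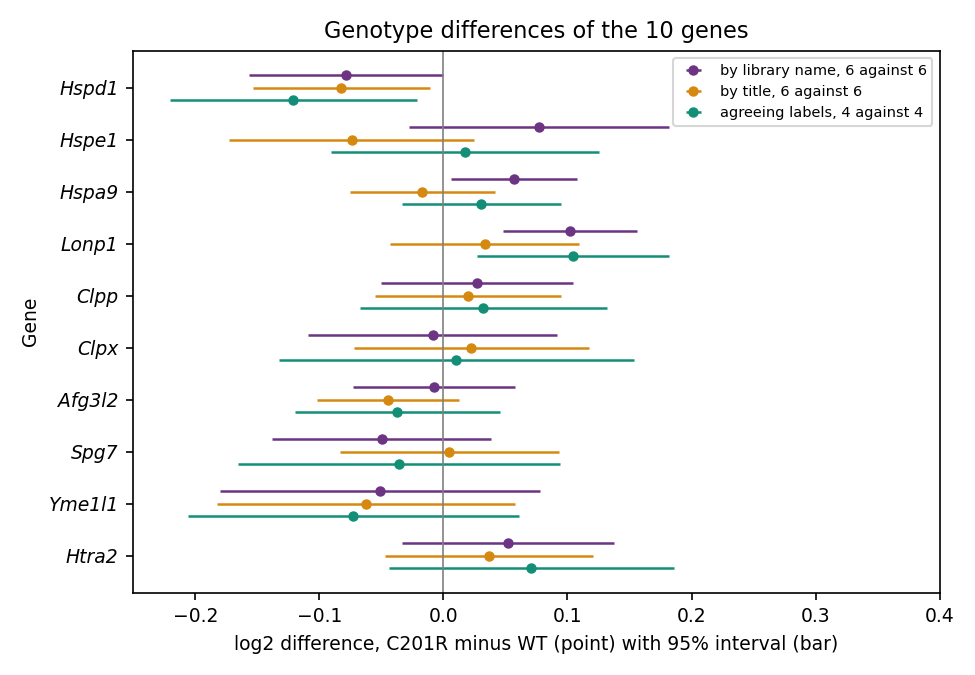
Fitted log2 difference (C201R minus WT, point) with its 95% interval (bar) for the 10 genes, by library name, by title and in the 8 libraries whose labels match. Lonp1 lies at 0.10 by library name and 0.03 by title, and Hspd1 lies below 0 each way. The signs of Hspe1, Hspa9, Clpx and Spg7 turn between library name and title.

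Hspd1 and Hspe1, the folding chamber and its lid, sit head to head on chromosome 1 and share the sequence between them. In GENCODE M21 (GRCm38), Hspd1 spans chr1:55077835-55088243 on the minus strand and Hspe1 chr1:55088132-55091307 on the plus strand, and the 2 gene models overlap by 112 bases. Their shared region is shown because it holds a run of heat shock elements, the motif bound by the heat shock factor Hsf1. The stretch below is chr1:55088053-55088082 of GRCm38, from RefSeq's promoter table, read on the plus strand from 5′ to 3′, with capitals marking TTCNNGAA, then 2 free bases, then TTCNNGAA again. It begins its match 89 bases before the RefSeq start of Hspe1 and lies within an exon of the Hspd1-202 transcript.
Hspe1 and Hspd1 shared region: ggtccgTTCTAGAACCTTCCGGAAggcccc

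That double motif, searched on both strands, occurred in 5 of 32544 promoter windows of 300 bases (0.0154%). Of these 5, 2 are overlapping windows of Hspd1 and Hspe1 that hold the same stretch. The double motif's shorter unit TTCNNGAA, which lies within it, occurred in 8.55% of windows and among the members also in that of Clpp. The search covered 8 windows of the 7 members that the table holds outside chromosome 18. Of these 7 genes, 6 had a GC box (GGGCGG, 35.9% of windows), and Hspd1 and Spg7 had a match to the NRF1 motif (4.63% of windows). A match describes letters and not a site in use.

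Hspd1 was lowest in libraries 1, 2 and 3, at 171, 177 and 168 CPM, and lay between 182.5 and 195.2 CPM in the other 9. In libraries named C201R it ran from 168 to 189.7 CPM with a median of 181, and in those named WT from 182.5 to 195.2 with a median of 189. The groups overlapped, since libraries 4, 9 and 10 were as high as the WT-named ones. The log2 difference was −0.08 ± 0.04 (SE, 6 against 6 libraries; edgeR adjusted p = 0.388). By title it was −0.08 ± 0.03 (adjusted p = 0.689), and in the 8 matching libraries −0.12 ± 0.04 (adjusted p = 0.305). Without libraries 1 to 3 it was −0.02 ± 0.03 by library name (adjusted p = 0.870) and −0.02 by title (adjusted p = 0.900). Those libraries were the lowest and were left out after the values were seen, so a smaller fall had to follow. Libraries 1 to 3 are also the 3 libraries named C201R that are high in Xist and without Y-linked transcripts. The 3 named WT of that kind (8, 11 and 12) had 192, 182.5 and 187 CPM of Hspd1. The part of the sex-linked split in the level of libraries 1 to 3 was not tested.

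The same libraries were low in cytosolic heat shock genes, which hold and refold proteins outside the mitochondrion. The summed level of 16 such genes was 5731 to 5935 CPM in libraries 1 to 3 and 6552 to 7106 CPM in the other 9. Of 13552 genes compared, the one whose level followed Hspd1 most closely over the 12 libraries was Hsph1, a cytosolic Hsp110 that restarts Hsp70, with a Pearson r of log2 CPM of 0.97 (Spearman 0.90). Ptpn9, a tyrosine phosphatase, and Mobp, a myelin protein gene, came next (r = 0.96 and 0.95). On the log2(TPM + 1) scale Hsph1 (0.958) was not among the 3 most like, while Ptpn9 (0.966) and Mobp (0.965) were. Without libraries 1 to 3 the r of log2 CPM with Hsph1 was 0.87, and those with Ptpn9 and Mobp were 0.71 and 0.63. Over the 12 libraries Hspd1 had an r above 0.5 with 15 of the 16 heat shock genes, the exception being Cacybp (r = 0.31). Its r with their summed level was 0.95 over the 12 libraries and 0.69 without libraries 1 to 3. These values describe 12 libraries that share preparation and depth, and no p is given for genes picked as the most alike.

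Over the 12 libraries, Hspe1 was not lowest in libraries 1 to 3. It stood at 51.7, 47.6 and 49.1 CPM there, within the range of the other 9 (45.4 to 55.6). Compared only with the other libraries named C201R, it was lower there, as Hspd1 was. Libraries 4, 9 and 10 had 53.1, 55.6 and 54.0 CPM of Hspe1. Libraries named C201R ran from 47.6 to 55.6 CPM with a median of 52.4, and those named WT from 45.4 to 53.0 with a median of 49.2. The difference was 0.08 ± 0.05 by library name (adjusted p = 0.551) and −0.07 ± 0.05 by title (adjusted p = 0.826), so its sign depended on the label used. In the 8 matching libraries it was 0.02 ± 0.05 (adjusted p = 0.926). Without libraries 1 to 3, the lowest of those named C201R, it was 0.13 ± 0.05 by library name (adjusted p = 0.388). Over the 12 libraries its r with Hsph1 was 0.36, and it passed 0.5 with 1 of the 16 heat shock genes (Hsp90aa1, r = 0.53). Within the library-name groups it followed them more closely. Its r with Hsph1 was 0.81 among libraries named C201R and 0.91 among those named WT, and 0.61 without libraries 1 to 3. With the summed heat shock genes it was 0.33 over the 12 libraries, 0.82 among those named C201R and 0.66 among those named WT.

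The r between Hspd1 and Hspe1 was higher within each library-name group than across both. Over the 12 libraries it was 0.29 (Spearman 0.31), and without libraries 1 to 3 it was 0.39. Among the 6 libraries named C201R it was 0.75, where libraries 1 to 3 were lower in both genes than libraries 4, 9 and 10. Among the 6 named WT it was also 0.75. The Hspd1 to Hspe1 ratio of CPM was 3.31 to 3.71 (median 3.46) in libraries named C201R and 3.64 to 4.02 (median 3.87) in those named WT. Those ranges overlapped only through libraries 2 (3.71), 5 (3.64) and 6 (3.68). By title the ratios covered nearly the same range, 3.31 to 4.02 for C201R and 3.39 to 3.93 for WT. The ratio was formed after the values were seen and is given without a test. The 2 gene models overlap, and RSEM gave Hspe1 fractional counts in 12 libraries and Hspd1 in 11, so some reads were divided between genes.

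Hspa9, the import motor, had the highest counts of the 10. It ran from 236 to 248 CPM in libraries named C201R (median 241) and from 225 to 236 CPM in those named WT (median 231). The groups met at a single point, since library 2 (235.9) lay just below library 6 (236.1). The log2 difference was 0.06 ± 0.02 (adjusted p = 0.333), a rise of 4.04% with a 95% interval of 0.443% to 7.76%. It was −0.02 ± 0.03 by title (adjusted p = 0.950) and 0.03 ± 0.03 in the 8 matching libraries (adjusted p = 0.718). The 2 libraries titled WT but named C201R held the highest levels (248 in library 4 and 244 in library 9), and the 2 titled C201R but named WT were among the 3 lowest (225 in library 11 and 230 in library 12).

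**Figure D3:**
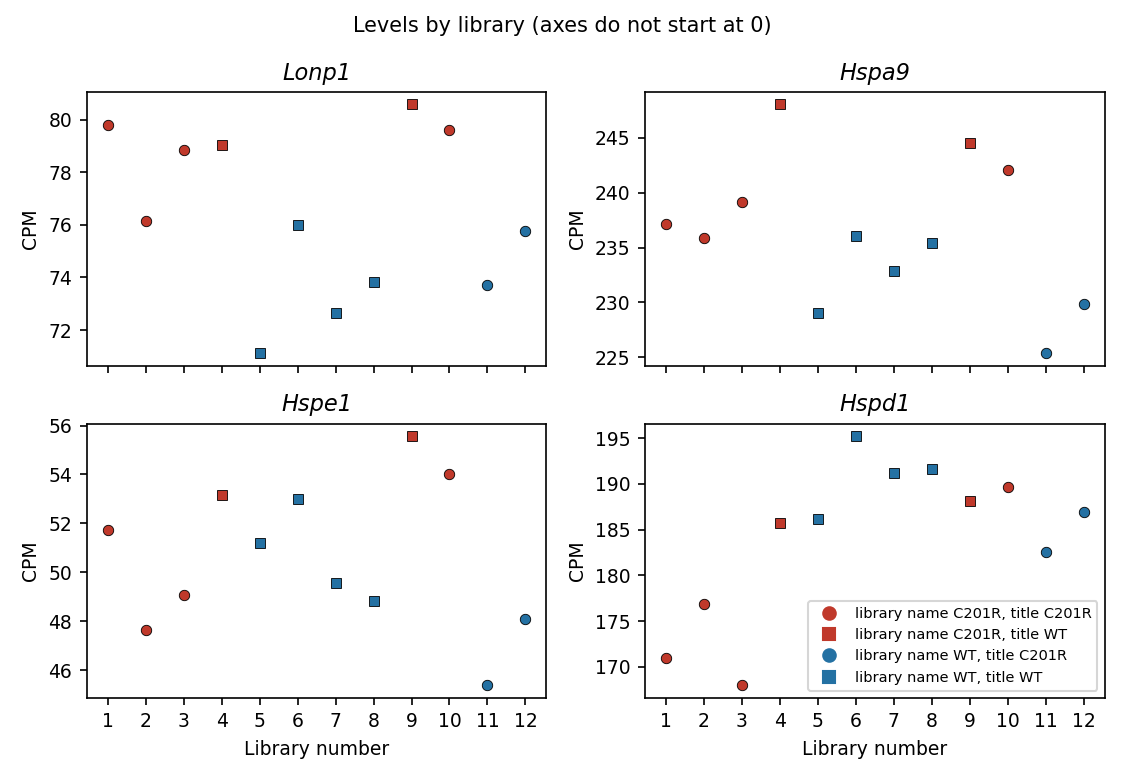
CPM of Lonp1, Hspa9, Hspe1 and Hspd1 by library number, on axes that do not start at 0; colour gives the genotype in the library name and shape the genotype in the title. Lonp1 of libraries named C201R lies at 76.1 to 80.6 and of those named WT at 71.1 to 76.0; Hspd1 is lowest in libraries 1 to 3.

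Lonp1 degrades oxidised and misfolded matrix proteins and came closest to the threshold. It had 79.8, 76.1, 78.8, 79.0, 80.6 and 79.6 CPM in libraries 1, 2, 3, 4, 9 and 10, named C201R. It had 71.1, 76.0, 72.7, 73.8, 73.7 and 75.8 CPM in libraries 5, 6, 7, 8, 11 and 12, named WT. The groups did not overlap, although library 2 (76.13) and library 6 (76.01) nearly touched, and 0.585% of the genes tested were likewise higher without overlap. The log2 difference was 0.10 ± 0.02 (adjusted p = 0.0969), a rise of 7.35% with a 95% interval of 3.41% to 11.4%. DESeq2, which called 318 of 17765 genes, gave the same difference an adjusted p of 0.049. With library number as an added term, edgeR called 235 of 17765 genes. It gave Lonp1 a difference of 0.12 with an adjusted p of 0.0419. Over all 24 other settings the difference lay between 0.09 and 0.14, with adjusted p between 0.0419 and 0.616, the highest without the 4 libraries rich in muscle transcripts.

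By title, Lonp1 ran from 73.7 to 79.8 CPM in C201R and from 71.1 to 80.6 CPM in WT, and the groups overlapped. The difference was 0.03 ± 0.04 (adjusted p = 0.910). In the 8 matching libraries it was 0.10 ± 0.03 (adjusted p = 0.256), and the 4 libraries of each genotype did not overlap, as was true of 3.73% of the genes tested in the higher direction. Those high in Xist among these were libraries 1, 2 and 3 (C201R) and 8 (WT). The part of that uneven split in the difference was not tested. The 4 disputed libraries lay where their library names would put them, 79.0 and 80.6 CPM for libraries 4 and 9 and 73.7 and 75.8 CPM for libraries 11 and 12.

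Some neuronal markers also differed by library name. The 6 motor neuron markers summed to 159 to 187 CPM in libraries named C201R and 196 to 276 in those named WT. Of the 6, 2 were higher and 4 lower, and 2 passed the test as lower, where 0.546% of the genes tested did: Chat (acetylcholine synthesis) and Chodl (a marker of fast motor neurons). The 8 neuron markers split into 3 higher and 5 lower (median −0.02). Nefl (neurofilament light chain) was the 1 that passed, also lower. Their sums, 4727 to 4789 CPM against 5114 to 5505, did not overlap, but the sums of the 7 without Nefl did, at 3067 to 3164 CPM against 3088 to 3357. None of the oligodendrocyte, astrocyte, microglia, endothelial, Schwann cell, skeletal muscle, fat or blood markers passed. No marker of the motor neuron and neuron lists was at 0 in a library. The part of Chat, Chodl and Nefl in the differences of Lonp1, Hspa9 and Hspe1 was not tested.

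The sequence upstream of Lonp1 is shown because the level of Lonp1 over the 12 libraries followed several genes of the ATF4 pathway, and factors of the ATF family bind CRE-type letters. Lonp1 spans chr17:56614297-56626887 on the minus strand (GENCODE M21, GRCm38). The stretch below is chr17:56626903-56627153 of GRCm38 from RefSeq's promoter table, read on the minus strand from 5′ to 3′. Capitals mark a match to TGACGTNA, which ends on the first base of the RefSeq gene, and the stretch overlaps no annotated exon. TGACGTNA occurred in 2.95% of the 32544 windows on either strand and in no other member's window. TGATGNAA, the letters of the composite C/EBP-ATF site, occurred in 3.91% of windows and in none of the 7 members searched. Such matches describe letters and not sites in use, and control of Lonp1 by ATF factors was not tested.
Lonp1 upstream: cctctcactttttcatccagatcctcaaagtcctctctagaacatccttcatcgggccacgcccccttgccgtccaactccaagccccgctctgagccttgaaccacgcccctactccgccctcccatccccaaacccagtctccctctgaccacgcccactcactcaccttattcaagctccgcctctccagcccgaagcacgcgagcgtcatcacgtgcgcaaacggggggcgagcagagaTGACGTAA

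Of the 13552 genes compared, the one most like Lonp1 over the 12 libraries was Gars itself, with a Pearson r of 0.95 (Spearman 0.90). Gars ran from 129.8 CPM in library 5 to 154.7 CPM in library 4. Libraries named C201R had 143.3 to 154.7 CPM of Gars and those named WT 129.8 to 142.2, without overlap, as for Lonp1. The r over 12 libraries thus partly restates that shared split. The r was also 0.95 without the 2 libraries of most extreme Gars level (4 and 5), 0.75 among the 6 libraries named C201R and 0.85 among the 6 named WT. Mzt2 (a microtubule organiser) and Eif3c (a translation initiation subunit) followed with r of 0.91 and 0.90. On the log2(TPM + 1) scale the r of Lonp1 with Gars was 0.98.

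**Figure D4:**
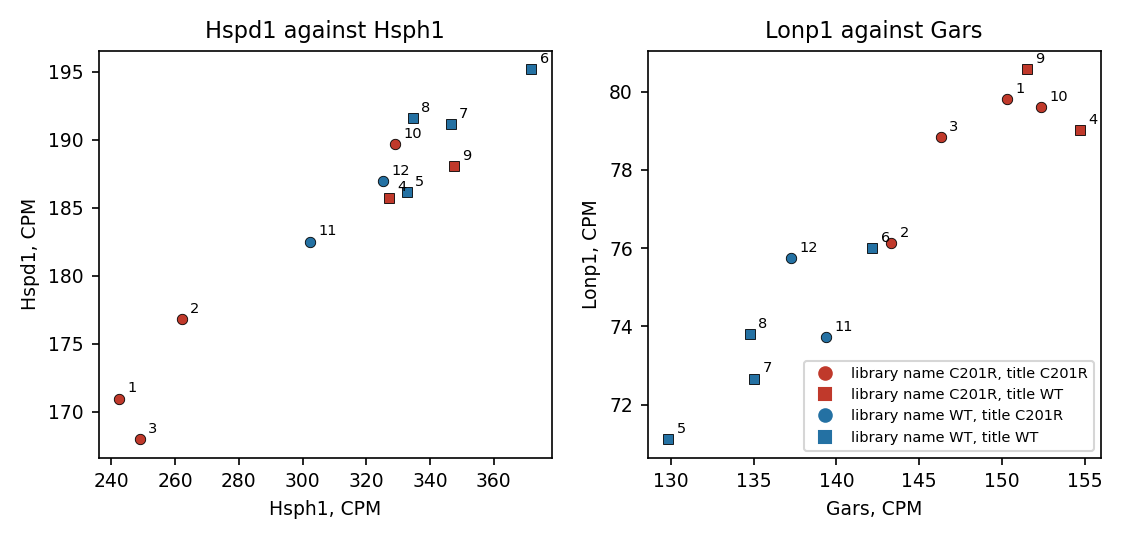
Hspd1 against Hsph1 (left) and Lonp1 against Gars (right), CPM per library with the library number beside each point; colour gives the genotype in the library name and shape the genotype in the title. Libraries 1 to 3 lie apart at low Hspd1 and Hsph1. Lonp1 rises with Gars (r = 0.95 over the 12 libraries), and both are higher without overlap in libraries named C201R.

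The other proteases differed by less than the spread between libraries. Clpp, the matrix peptidase, ran from 23.1 to 25.8 CPM in libraries named C201R and from 23.5 to 26.6 CPM in those named WT (log2 difference 0.03 ± 0.04, adjusted p = 0.821). Its unfoldase Clpx ran from 31.4 to 34.6 and from 30.4 to 36.7 CPM (−0.01 ± 0.05, adjusted p = 0.965). The 2 groups overlapped along most of their length for both. By titled sex, Clpp had the lowest unadjusted p of the 10, at 24.1 ± 0.634 CPM in libraries titled male and 25.2 ± 0.958 in those titled female (SD, 6 libraries each; edgeR adjusted p = 0.894). Judged by Xist, 3 libraries of either titled sex went against that title.

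Among the inner membrane proteases, Afg3l2 ran from 76.3 to 81.9 CPM in libraries named C201R and from 76.4 to 83.4 in those named WT (−0.01 ± 0.03, adjusted p = 0.951). Spg7 (paraplegin), its partner subunit, ran from 41.1 to 48.2 and from 44.9 to 48.7 CPM (−0.05 ± 0.04, adjusted p = 0.677). Yme1l1, which cuts the fusion protein Opa1, ran from 71.5 to 80.7 and from 66.2 to 85.5 CPM (−0.05 ± 0.06, adjusted p = 0.786). All 3 overlapped between the groups, and Yme1l1 varied most. Htra2, of the intermembrane space, had the lowest counts of the 10, from 17.8 to 19.5 CPM in libraries named C201R and from 17.2 to 19.0 in those named WT (0.05 ± 0.04, adjusted p = 0.652). By title the adjusted p of these 6 genes was between 0.803 and 0.999.

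A change in transcript use was looked for through the gene length that RSEM reports, an average over transcripts weighted by their abundance. It varied between libraries for the 7 members with several transcripts. Over 14 exact permutation tests (two-sided, by library name and by title) 0 passed, with adjusted p from 0.591 upward. The lowest unadjusted p was that of Hspd1 by library name, 0.0779, at 2252 ± 22.8 bases against 2228 ± 19.99 (SD, 6 libraries each, exact permutation test). In the 8 matching libraries 0 of 7 further tests passed (adjusted p from 0.40 upward), and Hspd1 again had the lowest p, 0.0571 by the exact permutation test, at 2263 ± 18.9 against 2229 ± 24.8 bases (SD, 4 libraries each).

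Levels of the 10 genes did not rise and fall as a block. Over their 45 pairs the r of log2 CPM ran from −0.75 (Hspd1 with Htra2) to 0.79 (Hspa9 with Lonp1), with a median of 0.01 and 23 pairs above 0. Hspa9 also followed Hspe1 (r = 0.75). The r between Hspa9 and Lonp1 was 0.52 among libraries named C201R and 0.32 among those named WT, below the value over both. That between Hspa9 and Hspe1 was 0.74 and 0.69.

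Genes that work beside the 10 in the mitochondrion gave no calls by library name, where 0.715% of all genes tested were called and 50.9% were higher. At that share, 0 calls sets no list apart from other genes. Of 15 other mitochondrial chaperones and assembly factors 0 passed (6 higher and 9 lower, median log2 difference −0.004). Trap1, the mitochondrial Hsp90, had the lowest p (−0.07 ± 0.03, adjusted p = 0.388). Of 13 other mitochondrial proteases and peptidases 0 passed, and the lowest p was that of Immp1l, an inner membrane signal peptidase (−0.20 ± 0.07, adjusted p = 0.282). Of 25 import genes 0 passed. Timm44, which tethers Hspa9 to the import channel, had the lowest p (0.08 ± 0.03, adjusted p = 0.293). Of 8 known partners and substrates of the 10, such as Opa1 and Smdt1, 0 passed.

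Measures of mitochondrial content gave no calls either, near the 0.715% of all genes. Of 19 nuclear genes of respiration and the matrix 0 passed by library name, 4 higher and 15 lower with a median of −0.02 (50.9% of all genes were higher). Of 13 genes of the mitochondrial DNA 0 passed, 12 lower with a median of −0.05. The latter summed to 60014 to 80724 CPM in libraries named C201R and 59086 to 79148 CPM in those named WT, and the groups overlapped. By title, 0 passed in each of these lists, where edgeR called no gene.

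Stress signalling genes did pass by library name. Of 19 genes that signal mitochondrial and amino acid stress, 5 were called higher, as were 0.169% of the genes tested, and 0 lower. In all 16 had a positive difference, with a median of 0.09. The list was drawn up with earlier results of these data known, so its count is not independent evidence. Atf4, the factor that drives amino acid stress genes, rose by 0.18 ± 0.03 (94.7 ± 3.53 against 85.1 ± 4.82 CPM; SD, 6 libraries each; edgeR adjusted p = 0.0342). Its relative Atf5, the factor tied to the mitochondrial unfolded protein response in mammals, rose by 0.26 ± 0.05 (edgeR adjusted p = 0.034). Sesn2, a brake on mTORC1, rose by 0.38 ± 0.04 (edgeR adjusted p = 0.00133). The secreted factors Gdf15 (0.445 against 0.0459 CPM) and Fgf21 (3.70 against 0.0114 CPM, with 2 counts over the 6 libraries named WT) also passed. In the 8 matching libraries Fgf21 alone passed from this list, and by title 0 of 19 did.

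Over the 12 libraries, Lonp1 and Hspa9 had the most high correlations with this list. Lonp1 had an r above 0.5 with 11 of its 19 genes and Hspa9 with 10, while Hspe1 did so with 2, Clpp with 1 and Hspd1 with 0. The highest for Lonp1 were Trib3 (0.85), Pck2 (0.84) and Fgf21 (0.84), and for Hspa9 Sesn2 and Fgf21 (both 0.77). The summed level of the list had an r of 0.92 with Lonp1 over the 12 libraries, 0.33 among those named C201R and 0.87 among those named WT. With Hspa9 it was 0.82 over the 12 libraries, 0.74 among those named C201R and 0.16 among those named WT. These genes take part in the library-name difference themselves, so the r over 12 libraries partly restates it.

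**Figure D5:**
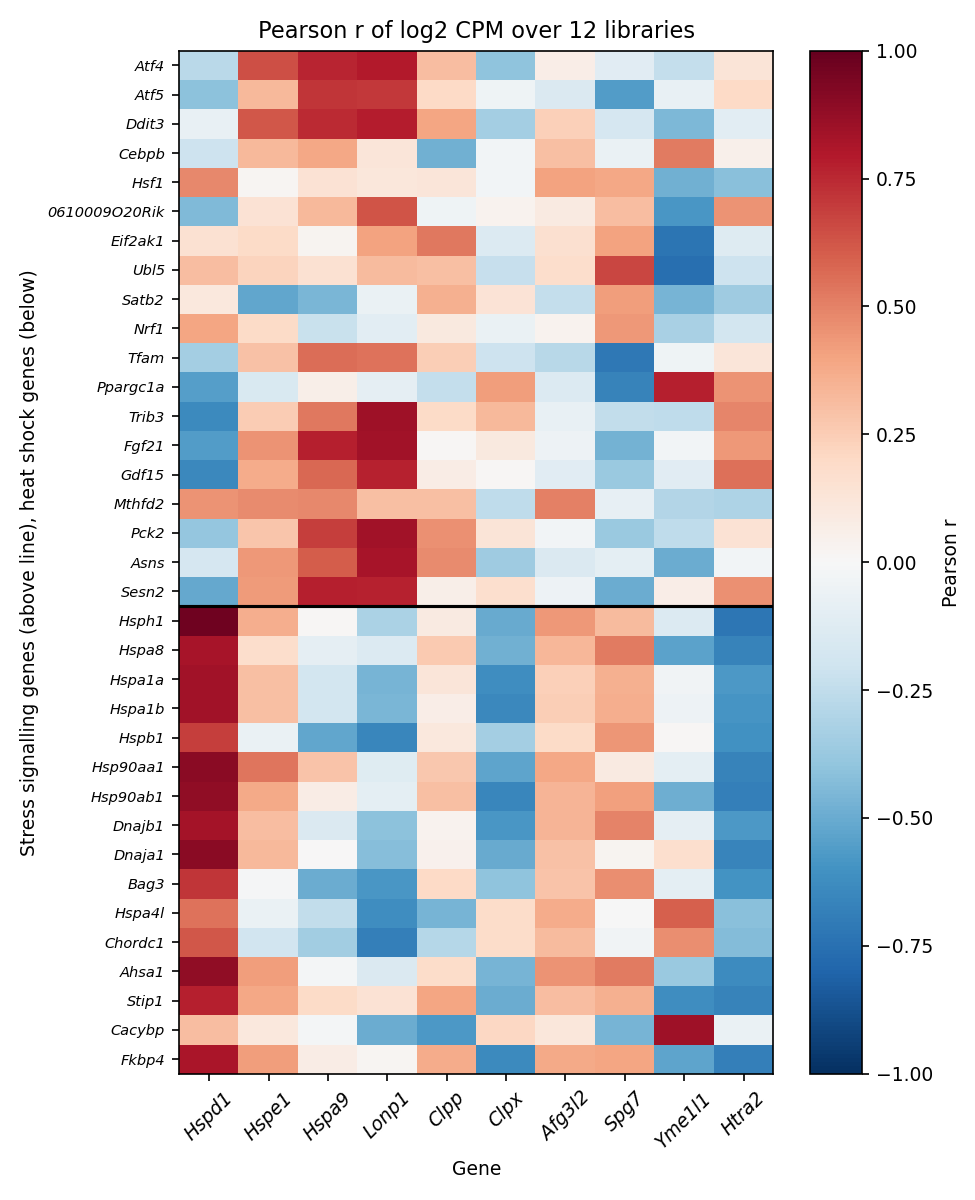
Pearson r of log2 CPM over the 12 libraries between each of the 10 genes (columns) and 19 stress signalling genes (rows above the line) and 16 cytosolic heat shock genes (rows below). Lonp1 and Hspa9 have r above 0.5 with 11 and 10 stress signalling genes, and Hspd1 has r above 0.5 with 15 heat shock genes.

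Cytosolic heat shock genes went the other way. By library name all 16 had a negative difference (median −0.11), and 3 passed as lower, as did 0.546% of the genes tested. These were Hspb1, a small heat shock protein (−0.61 ± 0.11, edgeR adjusted p = 0.02), Chordc1, an Hsp90 partner (−0.29 ± 0.05, edgeR adjusted p = 0.0265), and Bag3, an Hsp70 partner in selective autophagy (−0.38 ± 0.08, edgeR adjusted p = 0.0467). By title all 16 were also negative (median −0.12), and 0 passed. Both groupings include libraries 1 to 3 in C201R, whose heat shock sum lay below that of the other 9. In libraries 4, 9 and 10, also named C201R, Hspb1 had 19.2, 20.3 and 18.9 CPM, against 23.9 to 39.2 in those named WT. Bag3 had 33.8, 36.9 and 33.8 CPM there, against 39.4 to 54.6. Chordc1, at 52.8, 60.3 and 57.6 CPM, overlapped the 55.9 to 74.8 of those named WT.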

How the data were processed

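Total RNA of whole spinal cord was made into stranded polyA libraries and read as pairs, per the labels' protocols. Bowtie2 2.2.0 and RSEM 1.2.12 were used, per the submitters' processing notes. Genome build and gene annotation: not given in the sources used here. The authors deposited an expected count, TPM, FPKM, length and effective length per gene for each library, per the file headers. The deposited expected counts divide reads that fit several genes, so values of overlapping genes and close copies are uncertain, and 6 pseudogene copies of Hspe1 and Hspa9 held at most 3 counts in a library. The deposited FPKM entered no result, and the deposited TPM served for levels between genes and for 2 alternatives.

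Rounded expected counts were filtered with filterByExpr over the 4 titled groups, which left 17765 genes. CPM are these counts scaled by TMM. In R 4.3.3, differences were tested by edgeR 4.0.16 (quasi-likelihood) with titled sex as a term. P-values were adjusted by Benjamini-Hochberg over every gene in the fit, with a threshold of 0.05. Unless another tool is named, each adjusted p comes from that test. Standard errors come from the log2 difference and the root of its F statistic. The code was tested on simulated data. Alternatives were no second term, a filter at a mean of 1 CPM or none, limma 3.58.1 on log2 TPM with 1 or 0.1 added, RLE size factors, DESeq2 1.42.0, voom with quality weights, library number as a term, leaving out 4 muscle-rich libraries, and leaving out each library in turn. Leaving out libraries 1 to 3 was added after seeing the data.

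Likeness is Pearson r of log2 CPM (prior count 2) over genes with a mean of at least 1 CPM. Named are the 10 genes, genes called in each list or else those of lowest p, and the 3 genes most like each member where described. Marker genes that passed, single genes of the list correlations, and the Hspd1 to Hspe1 ratio were chosen after their values were seen. The members and lists were chosen with earlier results of these data known. Depth was 27175421 to 38271405 counts per library. No paired analysis was made, since libraries carry numbers that no 2 groups share. Sequences and positions come from RefSeq and GENCODE M21 (GRCm38).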

Additional observations from a re-analysis of the deposited data

Results flagged for a closer look

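Of 40 sets of 6 libraries examined (10 genes, each genotype, by library name and by title), 3 had a library that stood apart from the other 5, judged by its gap to the nearest library as a share of the whole range. Chance gives about 1 in 20 such sets. Clpx was highest in library 8, a titled WT male, at 36.7 CPM. Among the libraries named WT the others lay between 30.4 and 32.4 CPM, and the gap was 0.694 of the range. Among those titled WT the others lay between 30.4 and 32.2 CPM, and the gap was 0.719 of the range. Library 8 was also among the 4 with most skeletal muscle transcripts (2465 CPM), and the part of these in the Clpx level was not tested. Spg7 was highest in library 6, a titled WT female, at 48.7 CPM against 44.9 to 46.3 CPM in the others titled WT, a gap of 0.642 of the range. Library 6 held 1376 CPM of muscle transcripts, whose part in this value was not tested.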

How the results depend on the processing

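No paired analysis was possible because the libraries are numbered 1 to 12 and no groups share a number. By library name, the 10 genes under 12 other fits gave 120 values, of which 110 kept direction and side of the threshold, 2 were Lonp1 passing, and 8 turned sign. The members called were 1 under DESeq2 and 1 with library number as a term, Lonp1 each time, where 318 and 235 of 17765 genes were called. The signs that turned were those of small differences, as follows, and the cause was not tested. By library name, Clpx was 0.0063 without the sex term and 0.0105 in the 8 matching libraries. Afg3l2 was 0.0258 and 0.0262 on the TPM scales, 0.0374 without the muscle-rich libraries and 0.0153 without libraries 1 to 3, and Spg7 was 0.0445 and 0.0454 on the TPM scales. By title, the 8 matching libraries gave Hspe1 0.0173, Hspa9 0.0306 and Spg7 −0.0358. Hspa9 was 0.011 on both TPM scales, Clpx −0.0099 without libraries 1 to 3, Spg7 −0.00097 without the filter, and Htra2 −0.0076 without the muscle-rich libraries. In the 8 matching libraries Hspe1 was −0.00034 without the sex term, and Clpx was −0.0278 with library number and −0.113 without libraries 1 to 3. Afg3l2 there was 0.0046 and 0.0047 on the TPM scales and 0.0052 without the muscle-rich libraries. Spg7 there was 0.0335 and 0.0342 on the TPM scales, 0.00201 with library number and 0.0159 without libraries 1 to 3. By titled sex, Hspd1 was 0.0082 without the muscle-rich libraries and 0.019 without libraries 1 to 3, Clpx −0.0042 without the former, and Afg3l2 0.0017 with voom.

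With each library left out in turn, no member passed in any of the 4 comparisons. Signs turned for Afg3l2 (−0.0247 to 0.0141) and Clpx (−0.0485 to 0.0447) by library name and for Spg7 (−0.0143 to 0.0358) by title. In the 8 matching libraries they turned for Clpx (−0.0621 to 0.0849), Hspe1 (−0.0226 to 0.0387) and Spg7 (−0.0664 to 0.0022). By titled sex they turned for Afg3l2 (−0.011 to 0.013), Hspd1 (−0.0241 to 0.0164), Hspe1 (−0.0189 to 0.0317), Htra2 (−0.0329 to 0.0021) and Lonp1 (−0.0013 to 0.035).

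The number of genes called by library name, 127, was 318 under DESeq2, 41 and 42 on the TPM scales, 235 with library number, 12 without the muscle-rich libraries, 25 without libraries 1 to 3 and 29 in the 8 matching libraries. It ran from 52 (without library 7) to 209 (without library 9) with 1 library left out, and was 55 without library 1, 56 without library 4, 71 without library 8, 80 without library 12 and 83 without library 3. By title it was 18 under DESeq2, 8 with library number and 29 in the 8 matching libraries. In those 8, the 29 calls became 252 under DESeq2, 91 without the filter, 10 and 12 on the TPM scales, 242 with voom, 70 without the sex term, 14 with library number, 7 without the muscle-rich libraries and 6 without libraries 1 to 3, and 5 (without library 1) to 121 (without library 10) with 1 left out. By titled sex the count was 9 under DESeq2 and 0 to 1 with 1 library left out, the 1 without library 4. Of the 30 genes most like the members, 7 were also among the 3 most like on log2(TPM + 1).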

Other observations

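Yme1l1 split the libraries along neither label. It lay between 80.7 and 85.5 CPM in 5 libraries (2, 3, 5, 7 and 8) and between 66.2 and 75.1 CPM in the other 7. The genes most like it were Srsf7 (a splicing factor, r = 0.98 over 12 libraries), Mob4 and Eif1a (both 0.97). The r with Srsf7 was 0.97 among libraries named C201R and 0.98 among those named WT, and 0.97 without libraries 8 and 11, the extremes of Srsf7. Within the lists, Yme1l1 followed Cacybp (0.84) and Ppargc1a, a co-activator of mitochondrial genes (0.78), and ran against Ubl5 (−0.76) and Eif2ak1 (−0.73). The likeness to Mob4 fell to 0.43 on the log2(TPM + 1) scale and that to Srsf7 was 0.89.

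Htra2 ran against the heat shock genes. Its r was below −0.5 with 13 of 16 of them, and with Hspd1 it was −0.75. Without libraries 1 and 3, the extremes of Hspd1, the r with Hspd1 was −0.47, and without libraries 1 to 3 it was −0.65. Among libraries named C201R it was −0.81, and among those named WT −0.66. Htra2 had 484 to 684.5 expected counts per library, the fewest of the 10 genes. RSEM gave Htra2 fractional counts in 12 libraries, as for Hspe1, so some of its reads were divided between genes.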
